A study of Bos taurus with 4 samples.

Results

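In the subcutaneous back fat of cattle, 111 of 7009 kept nuclei were chosen by the RNA of 5 marker genes and 5 excluded genes. These nuclei were chosen by 3 conditions: at least 200 detected genes, at least 1 UMI (unique molecular identifier, a count of 1 captured RNA molecule) in at least 2 of the 5 genes PPARGC1A, MYH7B, HS3ST5, PNMT and RSPO3, and no UMI of PECAM1, PDGFRA, MYH11, PAX7 or NCAM1. They are called members below. All 4 libraries together held 8849 kept nuclei.

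The study made single-nucleus RNA libraries from 2 beef animals, with 1 library of subcutaneous back fat and 1 of intramuscular fat from each. The labels call the animals cows and the series' design text calls them steers. Nuclei were freed from fresh tissue in a Dounce homogeniser, captured with the 10x Genomics Chromium 3' kit, version 3.1, and sequenced on an Illumina NovaSeq. Both animals came from a commercial feedlot without experimental treatment, and their diet, age and breed were unknown to the submitters. The members are subcutaneous nuclei of animal 1 and animal 2, and they are set against other nuclei of the same 2 libraries.

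PPARGC1A encodes PGC-1α, a transcriptional coactivator that drives mitochondrial biogenesis and oxidative metabolism and that in muscle responds to exercise, cold and adrenergic signals. MYH7B encodes a myosin heavy chain of the slow type and its gene hosts a microRNA of slow muscle. HS3ST5 is a sulfotransferase that modifies heparan sulfate, PNMT makes adrenaline from noradrenaline, and RSPO3 is a secreted R-spondin that strengthens WNT signalling. A muscle fibre is a syncytium whose nuclei can differ in the genes they transcribe, so nuclei of 1 fibre need not be alike.

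The subcutaneous libraries of animals 1 and 2 held 881 and 6128 kept nuclei with 1143166 and 4009437 UMIs, and a median of 847 and 518 UMIs per nucleus. Contractile genes of slow and fast muscle took 4.90% and 21.0% of their UMIs, although the labelled tissue is fat, against 0.211% and 0.0891% in the libraries labelled intramuscular. The tissue names are used as the labels give them, and whether libraries were exchanged was not tested. The library of animal 2 was shallow and rich in muscle RNA, also in endothelial nuclei: 91.9% of its endothelial nuclei also had UMIs in at least 3 of 16 fibre genes, against 21.5% of those of animal 1. Between the libraries 4 barcodes were shared, none of them a member's. Members were 28 of 881 nuclei in animal 1 (3.18%, exact 95% interval 2.12 to 4.56) and 83 of 6128 in animal 2 (1.35%, 1.08 to 1.68). Intervals cover counting error only. With every nucleus thinned to 500 UMIs, the shares were 2.21% of 769 nuclei and 1.25% of 3283 nuclei.

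Most members passed the rule narrowly. In animal 1, 26 members had 2 of the markers and 2 had 3. In animal 2, 66 had 2 markers, 13 had 3 and 4 had 4, and no member had all 5. Just outside the rule lay 49 and 266 nuclei with 1 marker and no excluded gene, and 8 and 9 nuclei with at least 2 markers and an excluded gene, which was MYH11, a smooth muscle myosin, in 3 and 7 of them.

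The markers did not weigh equally in the 2 animals. PPARGC1A was found in 17 of 28 members of animal 1 and 54 of 83 of animal 2, against 7.66% and 1.80% of the other fibre nuclei and 2.08% and 0.541% of endothelial nuclei. HS3ST5 was found in 18 and 33 members and in 5.86% and 0.626% of other fibre nuclei. MYH7B was found in 9 and 52 members and in 1.80% and 0.978% of other fibre nuclei. PNMT was found in 7 and 20 members, and RSPO3 in 7 and 28. In animal 1 the most common pair was PPARGC1A with HS3ST5, in 11 members, and in animal 2 it was PPARGC1A with MYH7B, in 32. These values chose the members and are given as a description. HS3ST5, PPARGC1A and MYH7B each overlap another annotated gene, whose reads the counting could have assigned to them.

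Each marker was also looked at in nuclei picked by the other 4 alone, at 500 UMIs per nucleus and with no excluded gene. In animal 2, PPARGC1A was found in 28.1% of nuclei with at least 2 of the other 4 markers, against 1.66% of fibre nuclei with none of them. MYH7B was found in 17.1% against 0.640% and HS3ST5 in 14.0% against 0.402%. PNMT was found in 9.43% against 0.442% and RSPO3 in 15.2% against 0.995%. These are shares of nuclei of 1 library, which are not replicates. In animal 1 the counts were small: 1 of 13 nuclei against 8 of 167 for PPARGC1A, and 0 of 17 against 3 of 155 for MYH7B. There HS3ST5 was found in 2 of 11 against 5 of 163, PNMT in 0 of 18 against 1 of 154 and RSPO3 in 1 of 20 against 3 of 155. The 5 markers were chosen with clusters of these same nuclei known, so these shares are a description and do not test whether the markers belong together.

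The fibre label held against genes that the rule did not use. The other fibre nuclei were those that were not members, had none of the 5 excluded genes and had UMIs in at least 3 of 16 fibre genes, among them NEB, RYR1, TRDN and DMD. They numbered 222 and 5110. Every member also had UMIs in at least 3 of the 16 genes. These genes took 5.82% and 6.53% of the members' UMIs, 3.70% and 4.84% of those of other fibre nuclei, and 0.302% and 1.61% of those of endothelial nuclei. Of members, 26 of 28 and 61 of 83 lay above the 95th percentile of the endothelial nuclei in that share, against 172 of 222 and 2632 of 5110 other fibre nuclei. The fibre rule does not by itself separate fibre nuclei from nuclei that carry free muscle RNA in animal 2, so other fibre nuclei there are a mixture, and comparisons with only those above that percentile are given where they differ. Median depth was 788.5 and 613 UMIs in members, 788.5 and 507 in other fibre nuclei, and 1223.5 and 894 in endothelial nuclei.

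Markers of other cell types took small shares of the members' UMIs. Adipocyte markers took 0.320% and 0.109% of the members' UMIs, against 0.352% and 0.0380% in other fibre nuclei, so they were higher in members of animal 2. They include GPAM, whose levels are given below, and ADIPOQ, which was at 0 in members. Fibroblast markers took 0.235% and 0.0420%, against 0.524% and 0.0737%. Satellite cell markers took 0.0131% and 0.00336%, against 0.0274% and 0.00367%. Blood endothelial markers took 0.0490% and 0.0118%, against 0.0302% and 0.0221%, so they were higher in members of animal 1. Pericyte and smooth muscle markers took 0.0163% and 0.0336%, against 0.0317% and 0.0295%, higher in members of animal 2. Macrophage markers took 0.0131% and 0%, against 0.0175% and 0.00314%. The 6 T and NK markers had no UMI in members. Schwann markers took 0.00654% and 0.00505%, against 0.00635% and 0.00455%. PAX7, PECAM1, PDGFRA, MYH11 and NCAM1 were at 0 in members and in other fibre nuclei by the rules themselves. Of 6 genes of adrenal chromaffin cells, the textbook source of PNMT, 5 had no UMI. The 6 genes took 0.00654% and 0% of members' UMIs, against 0.00159% and 0.000125% in other fibre nuclei. The part of such RNA in the results was not tested.

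For the comparisons of genes, UMIs were summed per library over members and over the compared nuclei, and levels are given in CPM, which scales every sum to the same total of UMIs. The edgeR quasi-likelihood test set the sums against each other within each library, and genes were called at an adjusted p (Benjamini-Hochberg, over all genes tested) under 0.05. Changes are on the log2 scale, members over compared nuclei, with a standard error (SE) taken from the fit to the 2 libraries. The 10 genes of the member rule and the 16 fibre genes are left out of the tests. The calls set the difference within a library against how far it varied between the 2 animals. That spread was pooled mostly over genes against other fibre nuclei and wholly over genes against all other kept nuclei. The markers were chosen with clusters of these same nuclei known, so the calls do not bear on whether members form a class.

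Against other fibre nuclei 275 of 2936 genes were called (9.37%), 131 higher (4.46%) and 144 lower (4.9%), and all 275 had the same direction in both animals. The median over all genes tested was -0.08. With DESeq2's size factors in place of TMM scaling 206 genes were higher and 344 lower, and the median was -0.20. The number of calls was unstable: without 2 of the 222 compared nuclei of animal 1, those that a doublet caller marked, it was 492, and in a fit without the library as a block it was 0. Against all other kept nuclei 89 of 7065 genes were called (1.26%), 41 higher (0.58%) and 48 lower (0.679%), and 47 genes were called in both comparisons.

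ASB5, which encodes an ankyrin repeat protein of the SOCS box family that is known from muscle, rose against other fibre nuclei. ASB5 had 22285 and 10040 CPM in members of animals 1 and 2, against 3325 and 900 CPM in other fibre nuclei and 380 and 355 CPM in endothelial nuclei. Both members' sums lay above both compared sums. Its log2 fold change was 2.85 (SE 0.18) with an edgeR adjusted p of 2.02e-06. At 500 UMIs per nucleus ASB5 was found in 22 of 25 and 51 of 61 members, against 58 of 186 and 571 of 2636 other fibre nuclei and 4 of 135 and 18 of 157 endothelial nuclei.

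VEGFA, the secreted growth factor of blood vessels and a known target of PGC-1α in mouse muscle, was also high. It had 1013 and 1850 CPM in members, against 226 and 111 CPM in other fibre nuclei, without overlap. VEGFA rose by 2.98 (SE 0.39), with an edgeR adjusted p of 0.000491. At 500 UMIs it was found in 8 of 25 and 35 of 61 members, 17 of 186 and 118 of 2636 other fibre nuclei and 8 of 135 and 10 of 157 endothelial nuclei.

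GPAM, the acyltransferase that starts glycerolipid synthesis at the mitochondrial membrane, had 1307 and 891 CPM in members, against 151 and 37.6 CPM in other fibre nuclei. GPAM rose by 3.63 (SE 0.37), with an edgeR adjusted p of 6.06e-05. GPAM is also on the list of adipocyte markers, of which 10 genes were tested and GPAM alone was called, with a list median of -1.004. The part of adipocyte RNA in its level was not tested. At 500 UMIs GPAM was found in 40.0% and 36.1% of members, 4.84% and 1.59% of other fibre nuclei and 2.96% and 0.637% of endothelial nuclei.

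RETREG1, a receptor for autophagy of the endoplasmic reticulum, had 1895 and 2960 CPM in members, against 373 and 392 CPM in other fibre nuclei. It rose by 2.38 (SE 0.26), with an edgeR adjusted p of 9.89e-05. GABARAPL1, of the family of ubiquitin-like proteins that bind such receptors, had 948 and 2069 CPM in members, against 425 and 148 CPM. It rose by 2.38 (SE 0.46). In both genes the members' sums lay above the compared sums in both animals.

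Other genes with the largest changes were sparser. MYH6, the alpha cardiac myosin heavy chain, had the largest rise among called genes of at least 50 CPM: it had 10 and 9 UMIs in members (327 and 151 CPM), against 2 and 21 UMIs in other fibre nuclei (7.94 and 6.58 CPM), a change of 4.37 (SE 0.59). Its sequence is close to that of MYH7, so reads of the 2 genes may be assigned to the wrong one. SLC25A42, a mitochondrial carrier of coenzyme A, rose by 3.51 on 2 and 6 member UMIs, and VWA8, a mitochondrial ATPase, by 3.09 on 3 and 9. The deubiquitinase gene USP45 rose by 2.71 on 3 and 6 member UMIs, and FAM3A by 2.85 on 2 and 7. ZNF750, known as a regulator of skin differentiation, rose by 3.04 on 2 and 8 member UMIs. FSD1L rose by 2.96, with 392 and 252 CPM in members against 31.7 and 30.1 CPM. The histone H2A genes H2AC6 and H2AW rose by 3.45 and 3.47. H2AC6 had 131 and 1009 CPM in members against 47.6 and 46.7 CPM, so its rise came mostly from animal 2, and histone genes of near-identical sequence may share reads.

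**Figure D1:**
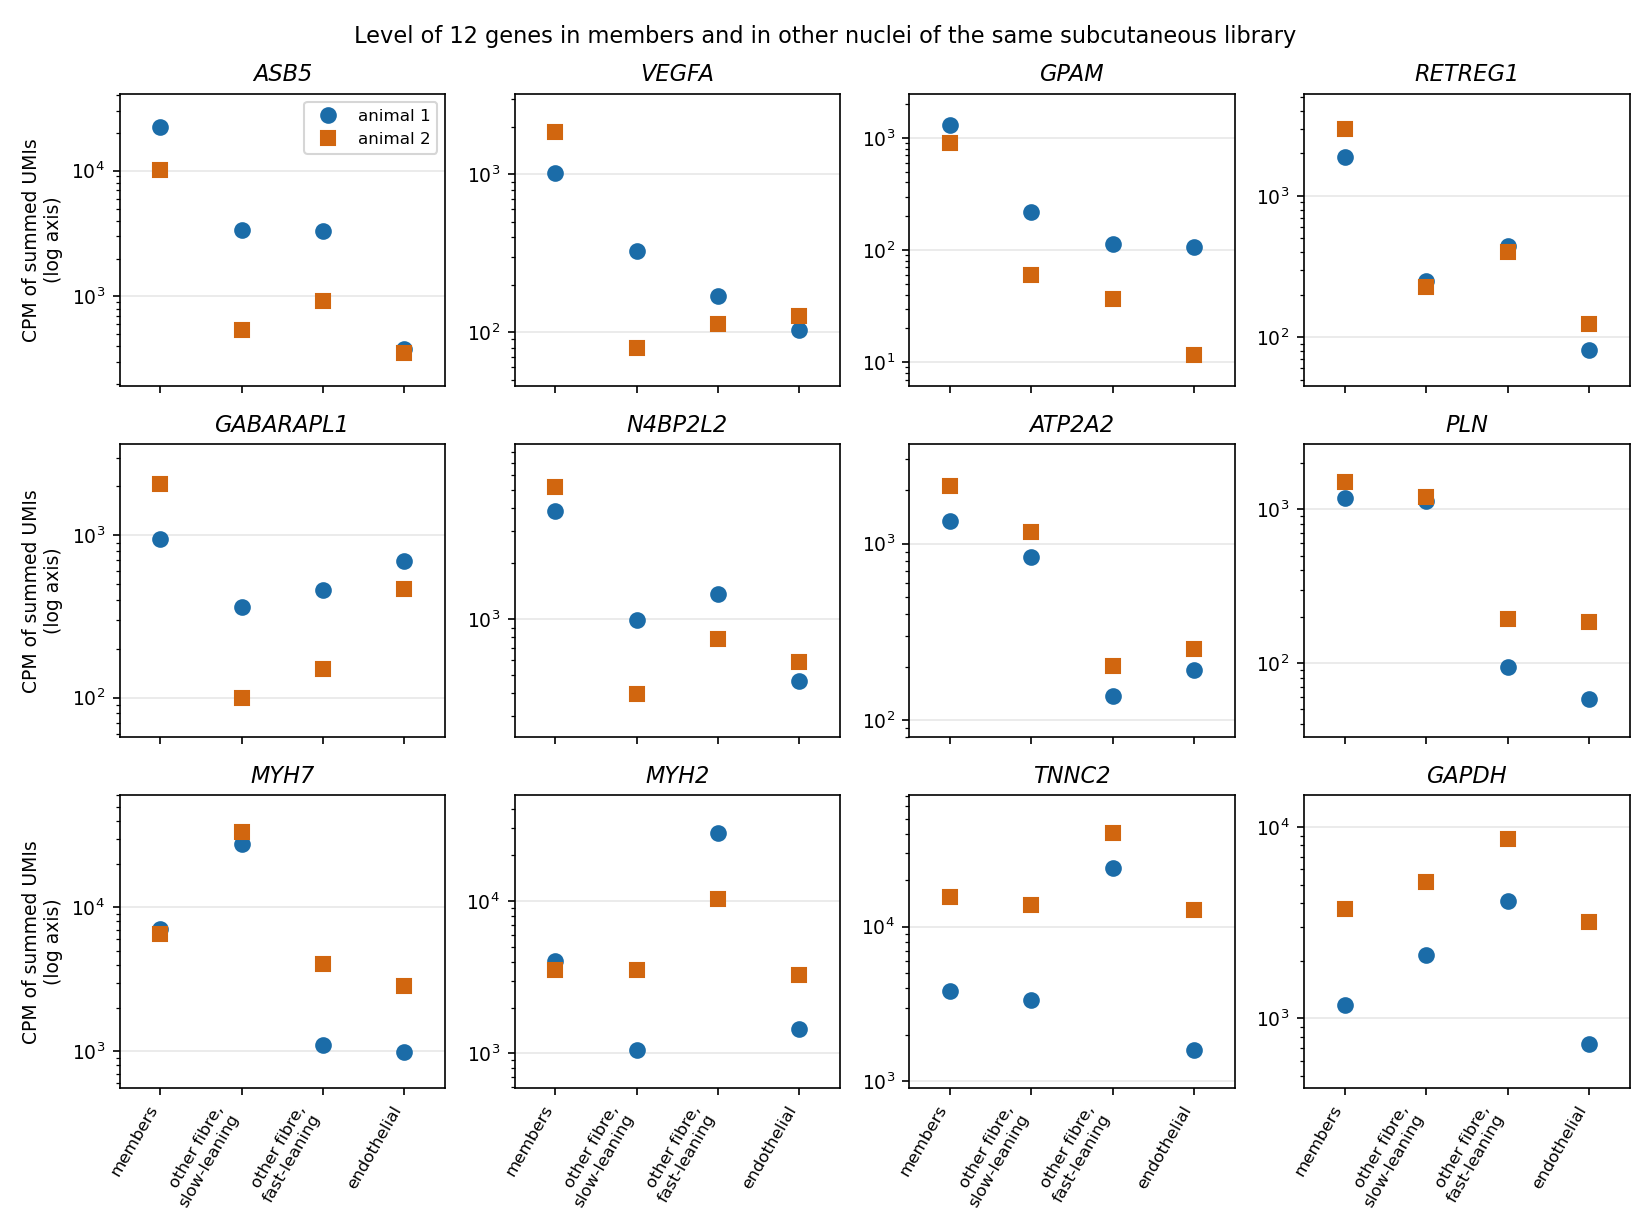
Level of 12 genes in CPM (log axis) in the summed UMIs of members, of other fibre nuclei leaning slow or fast by their contractile UMIs, and of endothelial nuclei, with 1 point per subcutaneous library. ASB5, VEGFA, GPAM, RETREG1, GABARAPL1 and N4BP2L2 are highest in members in both animals, ATP2A2 and PLN are high in members and in slow-leaning nuclei, and MYH7 is highest in slow-leaning nuclei.

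Fibre type was measured by the share of slow UMIs among those of 17 slow and 17 fast contractile genes. Members had a slow share of 69.5% in animal 1 and 33.2% in animal 2, against 37.5% and 13.1% in other fibre nuclei and 40.7% and 18.9% in endothelial nuclei. The members' share was higher in both animals, by a mean of 26.1 percentage points. With only 2 pairs of values an exact permutation test cannot pass 0.05, so none was run. The position of the members on the scale differed between animals: 22 of 28 members of animal 1 had more slow than fast UMIs, but only 2 of 83 members of animal 2, against 77 of 222 and 154 of 5110 other fibre nuclei. Between 40% and 60% lay 3 and 16 members. The per-nucleus median was 77.9% and 32.1%.

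**Figure D2:**
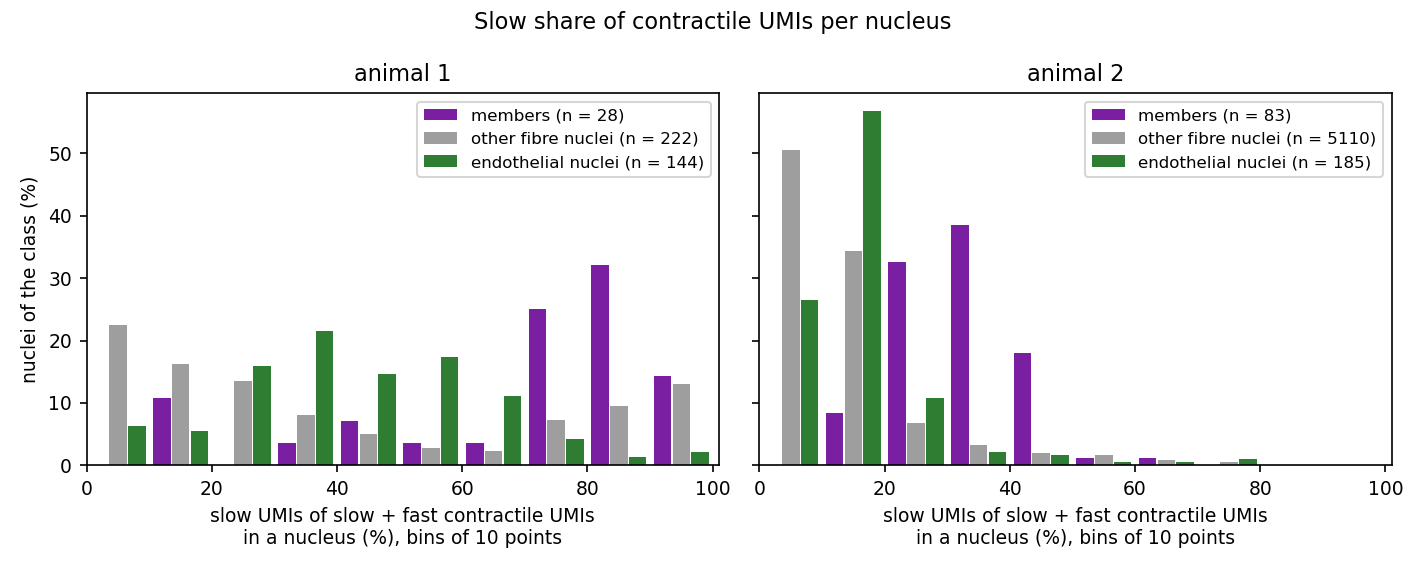
Percentage of nuclei of each class by the slow share of their slow and fast contractile UMIs, in bins of 10 percentage points, for each animal. Members lie mostly above 60% in animal 1 and between 20% and 50% in animal 2, where other fibre nuclei lie mostly below 20%.

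Fast genes were lower in members, while few of the slow genes tested were called higher. Over all 2936 genes tested 4.46% were higher and 4.9% lower, with a median of -0.08. Of 14 fast contractile genes tested, 11 were lower in members and 0 higher, with a median of -1.67. TNNC2, the fast troponin C, had 3823 and 15489 CPM in members, against 16384 and 38864 CPM in other fibre nuclei, a fall of -1.97 (SE 0.16). MYLPF, a fast myosin light chain, and TNNT3, the fast troponin T, fell by 1.95 and 1.96. MYH2, the fast oxidative myosin heavy chain, had 4052 and 3515 CPM in members, against 18086 and 9971 CPM, a fall of -2.09 (SE 0.17). MYH1, the heavy chain of the faster glycolytic type, had 523 and 8829 CPM, against 607 and 23048 CPM, a fall of -1.32 (SE 0.26) that was small in animal 1; its sequence is close to that of MYH2. In animal 2 the members' levels were near those of endothelial nuclei, which had 12827 CPM of TNNC2 and 3263 CPM of MYH2. The part of free muscle RNA in the members' fast UMIs was not tested.

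Of 15 slow contractile genes tested, 3 were higher (ATP2A2, MYOZ2 and MYH6), 1 was lower and 11 were not called, with a median of -0.09. All 17 slow genes together took 5.44% and 4.14% of members' UMIs, against 5.16% and 2.98% in other fibre nuclei. MYBPC1 is on the slow list but is one of the 16 fibre genes, so it was not tested. MYBPC1 had 13495 and 9687 CPM in members, against 8230 and 4950 CPM. MYH7, the slow myosin heavy chain, was not among the called genes: it had 7091 and 6508 CPM in members, against 10785 and 5464 CPM in other fibre nuclei, and the 2 animals went in opposite directions (-0.44, SE 0.18, edgeR adjusted p 0.139). ATP2A2, the calcium pump of slow and cardiac sarcoplasmic reticulum, had 1340 and 2119 CPM, against 393 and 249 CPM, and rose by 2.23 (SE 0.31). MYOZ2, a Z disc protein of slow and cardiac muscle, had 1013 and 858 CPM, against 333 and 229 CPM, and rose by 1.49 (SE 0.30).

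Of 15 calcium handling genes tested, 2 were higher and 3 lower, beside 4.46% and 4.9% of all genes tested. PLN, the inhibitor of the slow pump, rose by 1.76 (SE 0.32) with 1176 and 1497 CPM in members against 472 and 242 CPM. ATP2A1, the fast pump, had 392 and 1850 CPM, against 1540 and 4025 CPM, and fell by 1.73. SLN, a small inhibitor of the pumps, and JSRP1, a protein of the junction between sarcoplasmic reticulum and T tubule, fell by 1.80 and 2.12. SLN is also the slow contractile gene that was lower.

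A comparison with the 77 and 154 other fibre nuclei that had more slow than fast UMIs shows which differences remained next to slow nuclei. In it 280 of 1286 genes were called (21.8%), 155 higher (12.1%) and 125 lower (9.72%). Of the 131 genes higher against all other fibre nuclei 104 were tested and 87 were called higher again. ASB5 was higher by 3.35, RETREG1 by 3.22, GPAM by 3.07 and VEGFA by 2.92, with an edgeR adjusted p of 9.82e-08 for VEGFA and smaller ones for ASB5, RETREG1 and GPAM. PLN was not called and was at 0.08: members had 1176 and 1497 CPM and slow-leaning nuclei 1134 and 1209 CPM. The contractile genes chose these compared nuclei, so only their levels are described. These genes stayed in the fit. The counts above therefore include calls set in part by that choice, such as MYH7 (-2.27) among the lower genes. MYH7 had 7091 and 6508 CPM in members, against 27696 and 33545 CPM in slow-leaning nuclei. ATP2A2 had 1340 and 2119 CPM, against 840 and 1162 CPM, and TNNC2 had 3823 and 15489 CPM, against 3337 and 13801 CPM. For PLN and TNNC2 members lay near slow-leaning nuclei in both animals, and for MYH7 they lay far below them.

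Against the 172 and 2632 other fibre nuclei whose fibre gene share lay above the 95th percentile of endothelial nuclei, 341 of 1894 genes were called (18.0%), 199 higher (10.5%) and 142 lower (7.5%). Of the 131 genes higher against all other fibre nuclei 124 were tested there and 109 were called higher again, and of the 144 lower genes 142 were tested and 110 were called lower again. ASB5 was at 2.37, GPAM at 3.71, VEGFA at 2.94 and MYH2 at -2.41, all called. MEF2C (0.73), VGLL2 (1.01), NDUFA4 (-1.05), COX6A2 (-1.17), COX1 (-0.82), COX3 (-0.73), CYTB (-1.02) and MYH1 (-1.51) were not called there, though they were called against all other fibre nuclei. The reverse held for ACSL1 (1.84), NR4A3 (1.90) and ECHS1 (-2.34), which were called there but not against all other fibre nuclei.

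Of the genes that work with PGC-1α or respond to it, 15 of 36 passed the count filter, 2 rose, 0 fell and 13 were not called, with a median of 0.69. Among all 2936 genes tested 4.46% rose, and the median was -0.08. The list was not tested against that share. VEGFA is described above. MEF2C, a transcription factor that PGC-1α coactivates, had 752 and 1312 CPM in members, against 325 and 444 CPM, and rose by 1.13 (SE 0.29). The regulator of lipid synthesis LPIN1 was at 1.98 (SE 0.59) and the AMP kinase subunit PRKAA2 at 1.21 (SE 0.50), with edgeR adjusted p of 0.0506 and 0.138. ESRRA, the nuclear receptor partner, and TFAM, the factor for mitochondrial DNA, had 4 and 4 UMIs and 0 and 1 UMI in members. TFAM was too sparse to test.

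No gene on the lists of energy metabolism was called higher against all other fibre nuclei. As a background, 4.46% of all genes tested rose and 4.9% fell, with a median of -0.08. Of 21 respiratory chain genes 0 rose and 4 fell, among them SDHA by 1.88 (98.0 and 135 CPM against 274 and 410 CPM), COX6A2 by 1.26 and NDUFA4 by 1.11, and the list's median was -0.87. Of 15 fatty acid oxidation genes none was called, with a median of -0.19 and with ACSL1 at 1.48 (SE 0.56). The whole list took 0.288% and 0.294% of members' UMIs, against 0.356% and 0.219% in other fibre nuclei. Against nuclei above the endothelial percentile of fibre share, ACSL1 was called higher and ECHS1 lower. ECHS1 had 3 UMIs in members, and other fibre nuclei had 4.67 times the members' level (counting interval 1.59 to 22.7). Of 21 genes of glycogen use and glycolysis 0 rose and 9 fell, with a median of -1.07. ALDOA had 1144 and 7803 CPM in members, against 3571 and 17724 CPM, and fell by 1.66, and GAPDH, ENO3 and PYGM fell by 1.62, 1.57 and 1.60. Against slow-leaning nuclei ALDOA (-0.42), GAPDH (-0.76), ENO3 (-0.35) and PYGM (-0.80) were not called. SDHA (-2.45), COX6A2 (-1.71) and NDUFA4 (-1.33) were called lower there too. Of 11 mitochondrially encoded genes 5 fell, COX1 by 0.79, COX3 by 0.77, CYTB by 1.06 and COX2 by 1.13 among them.

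Members also held less cytoplasmic RNA by 2 measures that move with these lists. Mitochondrially encoded genes took 1.09% and 1.27% of UMIs in members, against 1.81% and 1.73% in other fibre nuclei. Ribosomal protein genes took 2.49% and 2.78%, against 4.24% and 4.78%, and of 76 such genes tested 31 were lower and 0 higher, a list chosen after its values were seen. Against compared nuclei matched to members on the mitochondrial share, 94 genes were called, 58 higher and 36 lower. Of the 131 higher genes 124 were tested there and 54 were called higher again, and of the 144 lower genes 139 were tested and 36 were called lower again. ASB5, GPAM, VEGFA, RETREG1, MYH2 and TNNC2 were among those called again. MEF2C, VGLL2, NR4A1, BHLHE40, MYF6, SDHA, COX6A2 and NDUFA4 were not, with edgeR adjusted p of 0.123, 0.0987, 0.136, 0.115, 0.113, 0.0665, 0.165 and 0.139. The matching itself sets the level of mitochondrially encoded genes there, so their values are not given. The part of cytoplasmic RNA in the lower calls was not tested.

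**Figure D3:**
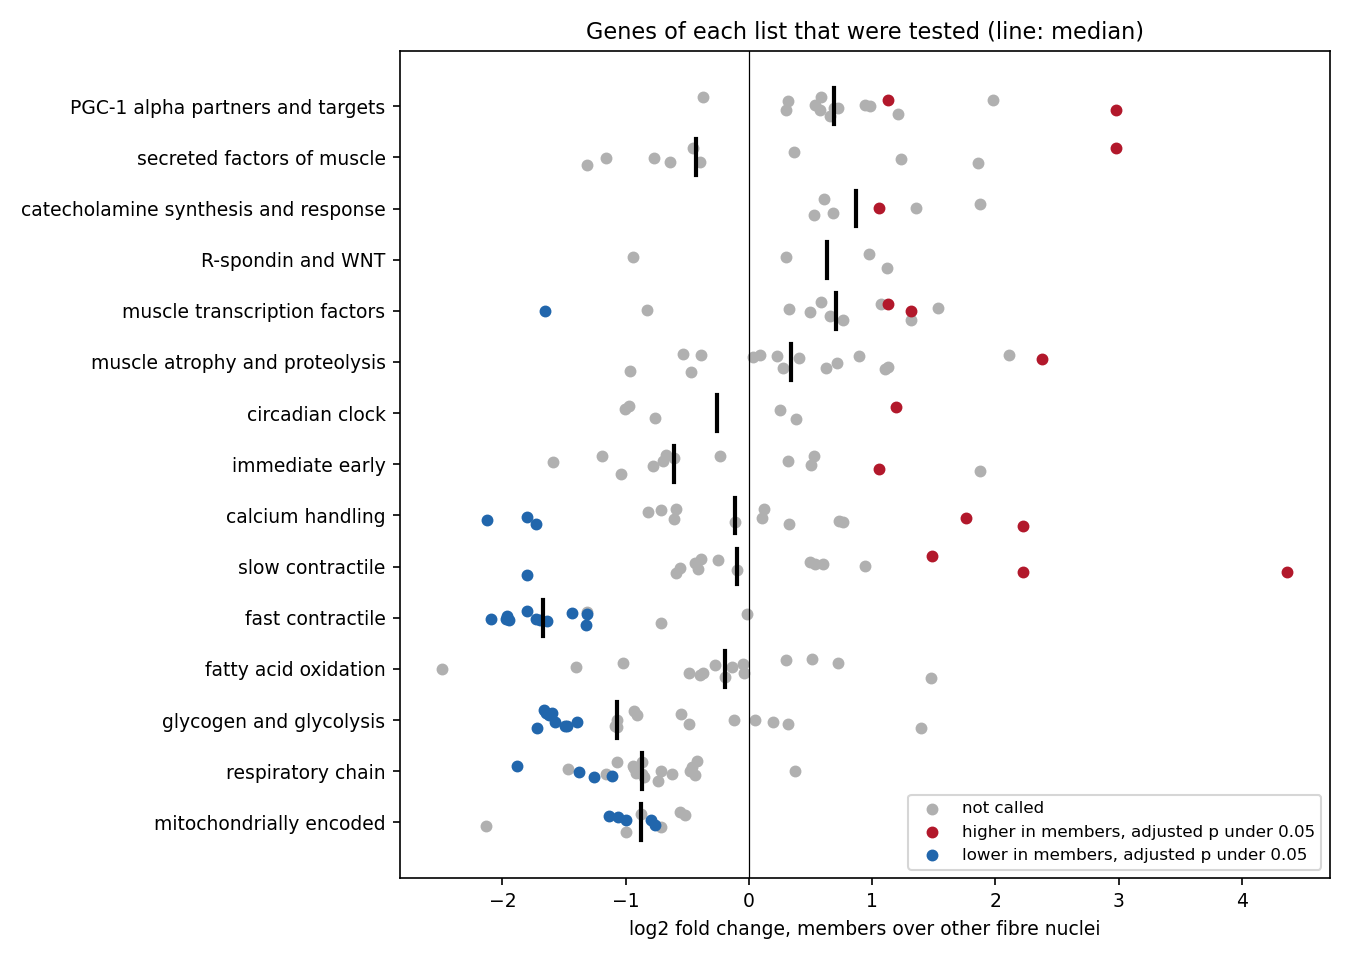
Log2 fold change, members over other fibre nuclei, of each tested gene of 15 lists, with the list's median as a line. Red and blue points are genes called higher and lower by edgeR. The fast contractile list has its median at -1.67 and the glycolysis list at -1.07, and the list of PGC-1α partners has its median at 0.69 with 2 genes called.

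Few of the genes around the other markers could be tested, and their counts stand beside 4.46% of all genes tested that rose. Of 29 genes that build or modify heparan sulfate, 3 were tested and none was called: AGRN, a heparan sulfate proteoglycan that nerves and muscle secrete, was at 1.86 (SE 0.59, edgeR adjusted p 0.0621). Of 24 genes of catecholamine synthesis and response, 6 were tested, with a median of 0.87 and positive values in all 6, and 1 rose, NR4A1, a nuclear receptor that adrenergic signals induce. NR4A1 had 1699 and 1093 CPM in members, against 806 and 370 CPM, and rose by 1.06 (SE 0.27), but endothelial nuclei had 1438 and 1402 CPM. Its relative NR4A3 was at 1.88 (SE 0.57) and was not called, though it was called against nuclei above the endothelial percentile of fibre share. DDC and DBH, which act before PNMT in making adrenaline, had no UMI in members, and TH had 2 and 0. Of 31 genes of R-spondin and WNT signalling, 4 were tested, none was called, and 19 had no UMI in members, among them the receptors LGR5 and LGR6. LGR4, the receptor that was tested, was at 1.12 (SE 0.61).

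Among muscle transcription factors 12 were tested, 2 rose, 1 fell and 9 were not called. Besides MEF2C, VGLL2, a cofactor that promotes slow fibre genes in mice, rose by 1.32 (SE 0.33), with 588 and 555 CPM in members against 246 and 153 CPM. MYF6, which is expressed in mature fibres, had 163 and 100.9 CPM, against 274 and 347 CPM, and fell by 1.66 (SE 0.47). Of 16 atrophy and proteolysis genes tested 1 rose, GABARAPL1. The ubiquitin ligases TRIM63 and TRIM55 were at 1.10 (SE 0.33) and 2.11 (SE 0.62), with edgeR adjusted p of 0.0540 and 0.05002, just above the threshold. Of 6 circadian genes 1 rose, BHLHE40, a repressor of the clock, by 1.197 (SE 0.32). Of 13 immediate early genes NR4A1 alone was called. Of 10 tested genes for factors that muscle secretes, VEGFA alone was called. Over all genes tested 4.46% rose and 4.9% fell, and these short lists were not tested against those shares.

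Markers of special parts of a fibre gave few calls, and too few were tested to set them apart from the 4.46% of all genes tested that rose. Of 18 neuromuscular junction genes 6 were tested and 1 rose: CHRNA1, a subunit of the acetylcholine receptor, had 5 and 10 UMIs in members (163 and 168 CPM), against 7 and 72 UMIs (27.8 and 22.6 CPM), and rose by 2.47 (SE 0.54). Against slow-leaning nuclei, which had 43.6 and 73.1 CPM, CHRNA1 was at 1.33 and was not called. ACHE, COLQ, MUSK and ETV5, which mark junctional nuclei, had no UMI in members. CHRNA1 was also the called gene of the 2 tested among 11 markers of immature or denervated fibres, where MYH3 and RUNX1 had no UMI. Of 13 spindle fibre genes 3 were tested and 1 rose, MYH6, and MYH15 had 0 and 1 UMI. Of 11 myotendinous junction genes found among the features 4 were tested and none was called.

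The genes with the largest falls were at or near 0 in members. RAB5IF, EIF3G, TOMM70 and ARL2 had no UMI in members, against 28 and 407, 24 and 411, 24 and 274 and 18 and 248 UMIs in other fibre nuclei. Against the level that 3 UMIs give over both members' sums, they were at least 3.34-fold, 2.86-fold, 2.58-fold and 2.14-fold lower. EIF3G is a subunit of a translation initiation factor and TOMM70 a receptor of mitochondrial protein import. With 1 to 3 member UMIs, other fibre nuclei had 11.4 times the members' level of NDUFB9 (counting interval 3.16 to 94.6), 9.16 times that of ERH (1.63 to 363), 8.30 times that of FLNA (2.29 to 68.7) and 8.59 times that of ATP5MC2 (2.93 to 41.7). NDUFB9 and ATP5MC2 belong to the respiratory chain and the ATP synthase, and FLNA is an actin crosslinker.

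Against all other kept nuclei the genes with the largest rises again included MYH6 (3.99, SE 0.74), GPAM (2.96, SE 0.60), VEGFA (2.86, SE 0.65) and RETREG1 (2.78, SE 0.77). H2AW rose by 3.58. ASB5 was not called there: it was at 3.39 (SE 1.62), with an edgeR adjusted p of 0.365. GABARAPL1 (1.70, SE 0.71), N4BP2L2 (2.23, SE 0.96), MEF2C (1.48, SE 0.62) and NR4A1 (0.57, SE 0.68) were not called either. TMEM120B, a membrane protein gene, had 359 and 185 CPM in members, against 46.7 and 10.6 CPM in all other nuclei, and rose by 3.16 (SE 0.64). SLC27A6, a fatty acid transport protein, rose by 2.99, with 1 and 16 UMIs in members. AGBL1, an enzyme that shortens glutamate side chains of tubulin, rose by 3.35 on 7 and 5 member UMIs. UNC93A rose by 2.94, FAM160A1 by 2.73 and the deubiquitinase gene USP2 by 2.65, each on 17 member UMIs.

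The genes with the largest falls against all other nuclei had no UMI in members. They included the endothelial and stromal genes PTGS2, a prostaglandin synthase, PTGIS, prostacyclin synthase, TNFSF10, a death ligand, MFGE8 and DLC1, together with CRKL, EIF3G and RAB5IF. Over the level of 3 UMIs these gave lower bounds of 1.22-fold for PTGS2, 1.77-fold for PTGIS, 1.76-fold for TNFSF10, 1.86-fold for MFGE8, 1.95-fold for DLC1, 1.48-fold for CRKL, 2.64-fold for EIF3G and 1.83-fold for RAB5IF. The member rule left out nuclei with PECAM1, PDGFRA or MYH11, and the compared nuclei here still held such nuclei. The falls of endothelial and stromal genes are therefore set in part by the rule.

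Levels were also set side by side by the number of markers a fibre nucleus carried, for 6 genes chosen after their values were seen. ASB5 had 22285 and 10040 CPM in members, 10626 and 2876 CPM in fibre nuclei with 1 marker and 1878 and 761 CPM in those with none. VEGFA had 1013 and 1850 CPM in members, 528 and 454 CPM with 1 marker and 166 and 86.6 CPM with none. GPAM had 1307 and 891 CPM, 264 and 196 CPM, and 128 and 26.5 CPM in the same order. In both animals nuclei with 1 marker lay between members and nuclei with none for ASB5, VEGFA, GPAM, RETREG1, ATP2A2 and TNNC2. That order did not hold in animal 1 for VGLL2, with 588 CPM in members, 648 CPM with 1 marker and 166 CPM with none, or for FSD1L, with 392, 0 and 38.0 CPM. MYH6, USP45 and ZNF750 also had no UMI in nuclei with 1 marker of animal 1. Members with 3 or more markers had 8511 CPM of ASB5, 1748 of VEGFA and 760 of GPAM in animal 2, against 10475, 1879 and 929 CPM in members with 2. Median depth was 800.5 and 580.5 UMIs in nuclei with 1 marker and 782.5 and 504 in those with none.

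**Figure D4:**
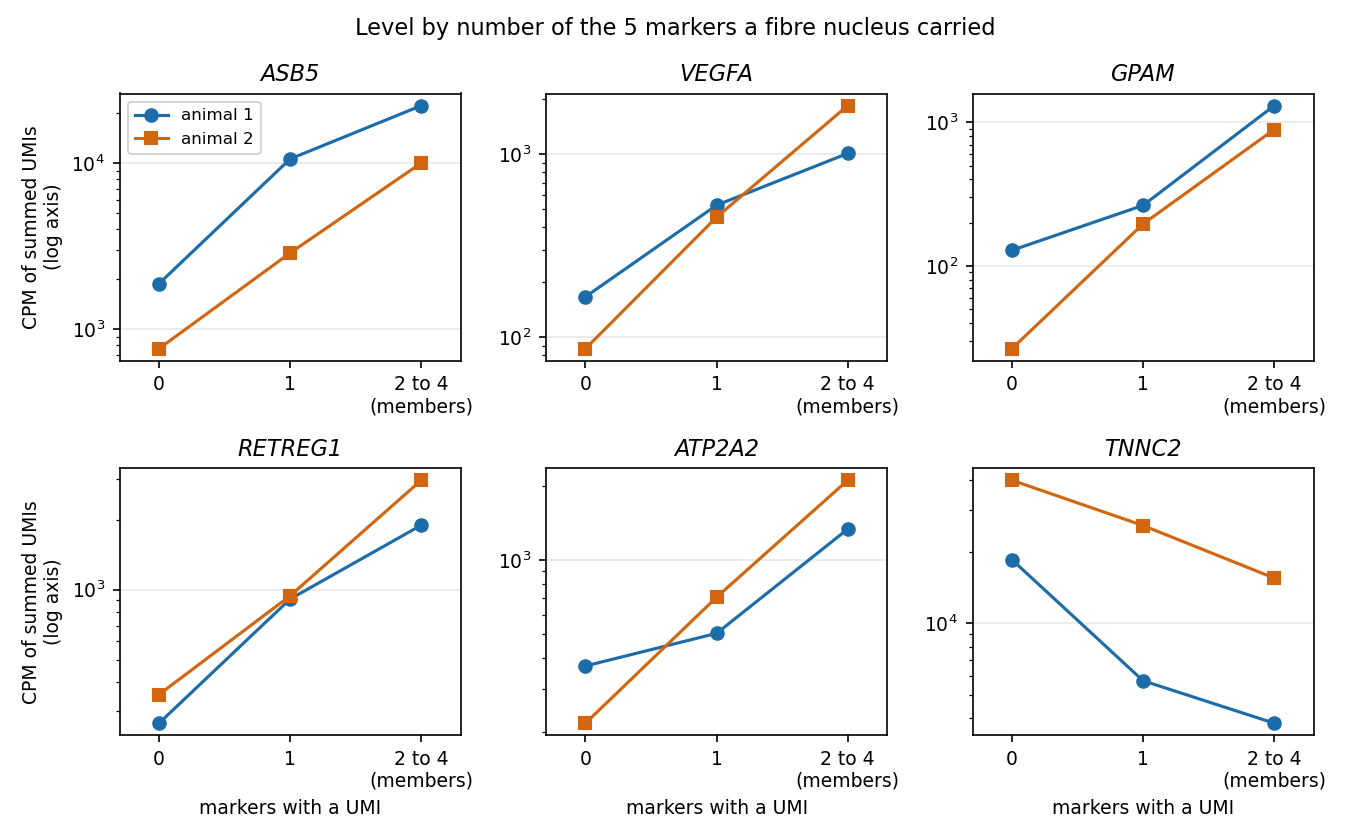
Level in CPM (log axis) of 6 genes in fibre nuclei with 0, 1 and 2 to 4 of the markers, the last being the members, with 1 line per animal. ASB5, VEGFA, GPAM, RETREG1 and ATP2A2 are higher and TNNC2 lower at each step in both animals.

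Levels also varied among members that carried different markers. In animal 2, ASB5 was at 8482 to 11960 CPM, VEGFA at 1375 to 2130 CPM and RETREG1 at 2268 to 3695 CPM over members with each of the 5 markers in turn, while H2AC6 was at 275 to 1520 CPM. In animal 1, where each such group held 7 to 18 members, ASB5 was at 10584 to 34105 CPM, VEGFA at 609 to 1684 CPM, GPAM at 676 to 1928 CPM and MYH6 at 0 to 702 CPM. MYH7 varied widely in animal 1, with 15764 CPM in members with PNMT and 17046 CPM in members with RSPO3, against 1583 CPM in those with PPARGC1A and 3641 CPM in those with HS3ST5. These groups share nuclei, and no test was made between them.

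BRCA2, a DNA repair gene, and N4BP2L2 were named after their values were seen. BRCA2 had 948 and 605 CPM in members, against 262 and 88.7 CPM in other fibre nuclei, and rose by 2.07 (SE 0.33). N4BP2L2 had 3856 and 5163 CPM, against 1226 and 762 CPM, and rose by 1.96 (SE 0.25). Both were called with an edgeR adjusted p of 0.00231 and 0.000350, and both were also called against slow-leaning nuclei, at 3.38 and 2.73.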

How the data were processed

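Single-nucleus RNA was measured in 4 libraries, and the members come from the 2 subcutaneous ones. Each library has 1 deposited matrix, whose values are whole UMI counts for a gene in a barcode, not normalized. Cell Ranger 6.0.1 produced the counts, per the file headers, on ARS-UCD1.2, per the submitters' processing notes. Neither the annotation's release nor the treatment of intron reads was given in the sources used here. The features were 21861 Ensembl genes, 4251 of them without a name. The RefSeq gene table at hand is for ARS-UCD2.0, another assembly, so it was used only for names and for overlaps: 95 of 97 genes looked up were found, and 38 overlap another gene. Reads of such genes may have been assigned to the partner.

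Barcodes with at least 200 detected genes were kept, with no limit on mitochondrial RNA in the main analysis. Endothelial nuclei had UMIs in at least 2 of 7 endothelial genes. Since nuclei of 1 library do not replicate each other, UMIs were added up by class within each library and tested with edgeR 4.0.16 in R 4.3.3 (filterByExpr, TMM scaling, quasi-likelihood F test, Benjamini-Hochberg). Both sums of a pair come from the same library, so the library is a block in the model. The SE was obtained by dividing the fold change's size by the root of F, as edgeR reports none. Each animal gave 1 library, and the block takes out the animals' own levels. The p-values rest on how far the within-library difference varied between 2 animals, with that spread pooled over genes. Pooling was strong against other fibre nuclei (12.27 prior degrees of freedom). It was complete against all other kept nuclei and against slow-leaning nuclei, where a gene's own spread between the animals did not enter. Small p-values there do not measure how well the 2 animals matched for that gene. Members held 30603 and 59461 UMIs. Shares have exact Clopper-Pearson 95% intervals, and a count of 0 was read as allowing 3 counts. The test was checked on simulated data. Scrublet, in scanpy 1.11.5, marked 2 of 881 and 0 of 6128 nuclei, under 0.5%, so it did not work here and doublets were kept.

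The members and lists were chosen with earlier results of these data known. Up to 12 higher and 8 lower genes per comparison were named by the size of the change, among called genes with at least 50 CPM in the higher group and the libraries apart, besides list members; some genes are not reported here. Alternatives covered the block, DESeq2 1.42.0 size factors and test, the gene filter, depth, doublets, mitochondrial RNA, the fibre rule and each library left out. No genome or sequence table was used.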

Additional observations from a re-analysis of the deposited data

Results flagged for a closer look

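In the intramuscular library of animal 1, which no comparison above uses, 6 of 1777 nuclei met the member rule, a share of 0.338% (exact 95% interval 0.124 to 0.733), and 0 of 63 nuclei did in that of animal 2. All 6 nuclei were deep, with a median of 3258.5 UMIs, and none had a UMI of the 16 fibre genes. Adipocyte markers took 1.00% of their UMIs, against 1.04% in the other nuclei of that library. At 500 UMIs per nucleus 1 of 1777 nuclei met the rule.

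MYH7, the slow myosin heavy chain, was lower in members of animal 1 and higher in members of animal 2 than in other fibre nuclei of the same library. Its fitted change was -0.44, and the difference between the animals was not tested.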

How the results depend on the processing

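The number of genes called against other fibre nuclei, 275 in the main analysis, moved by more than 1.5 times under 7 alternatives. It was 550 with DESeq2's size factors, 492 without the nuclei that Scrublet marked, 475 without the deepest 5% of nuclei, 599 against nuclei with at least 5 fibre genes, 133 in nuclei with at least 500 genes, 94 against nuclei matched on mitochondrial share, and 0 without the replicate block (285 genes at an unadjusted p under 0.05). Against all other nuclei the 89 calls became 51 without the deepest 5%, 14 with at least 500 genes and 1 without the replicate block. DESeq2's size factors moved the median of all genes from -0.08 to -0.20. DESeq2's own test called 59 higher and 155 lower genes.

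Named genes turned round against slow-leaning nuclei (MYOZ2 -0.21, MYH1 0.996, MYH2 0.83, TNNC2 0.072, TNNT3 0.42, MYLPF 0.19) and, for MYH7, against nuclei matched on mitochondrial share (0.10) and without animal 1 (0.25). The slow-leaning nuclei were chosen by those genes. Where an alternative was chosen after seeing the data it was one of these 2, the nuclei above free fibre RNA, or the slow share at 500 genes. The members' share of nuclei was 0.227% and 0.277% when 3 markers were asked for, and 2.71% in animal 2 in nuclei with at least 500 genes.

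With 1 library left out no residual degrees of freedom remain, so only values are given: the excess of the slow share was 20.1 to 32.03 percentage points. Of the changes of named genes, 43 moved by more than the spread between the animals without animal 1 and 26 did not. Without animal 2, 18 moved and 47 did not. Requiring 3 markers left 2 and 17 members, and that comparison could not be fitted. Depth limits the sparse genes: members held 30603 and 59461 UMIs, and 276 genes tested against all other nuclei had no UMI in members.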
